A study of Mus musculus with 2 samples.

Results

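The keratins *Krt6a*, *Krt6b*, *Krt16* and *Krt17*, which keratinocytes switch on when they are wounded, irritated or driven to proliferate, were read in 2 skin sections from imiquimod-treated mice. The members were the rows of the count tables that carry these 4 symbols, of 19465 genes and 48 keratin genes in all. They are given below relative to *Krt14*, the type I keratin of basal keratinocytes, over the epidermis, from the surface into the skin and along each section. Relative to *Krt14*, *Krt6a*, *Krt6b* and *Krt16* were lower in the section from the mouse with Cre in its keratinocytes than in that of its floxed control, whereas the direction of *Krt17* turned with the choice of spots, from a log2 ratio of −0.20 in the epidermis as first defined to 0.92 under another definition.

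One section came from a mouse labelled *S1pr2 f/f*, written *S1pr2 fl/fl* here, and the other from a mouse labelled *S1pr2 f/f K14-Cre*, written *S1pr2 fl/fl K14-Cre*. Mice of both genotypes carried floxed alleles of *S1pr2*, the gene of sphingosine 1-phosphate receptor 2, so the control differed by the lack of the Cre transgene. Cre was driven by a keratin 14 promoter, which is active in basal keratinocytes and in other epithelia that make keratin 14, such as the outer root sheath of hair follicles. The mice were 8 weeks old, their back skin was depilated 1 day earlier, and each received 62.5 mg of 5% imiquimod (IMQ) cream daily for 7 days. No section without IMQ was analysed here, so the values say how the keratins stood after IMQ and not how far they had risen. The sections are called the control section and the Cre section from here on. Each genotype was represented by 1 section of 1 mouse. No test between genotypes was therefore possible and no p-value is given, and the 95% intervals cover counting error only, not the spread between mice.

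Keratins form filaments as pairs of 1 type I and 1 type II protein. *Krt5* and *Krt14* are the pair of the basal layer, and *Krt1* and *Krt10* replace them as keratinocytes move upwards and differentiate. *Krt6a* and *Krt6b* are type II keratins, and *Krt16* and *Krt17* are type I keratins that pair with them. In resting skin they are found mainly in hair follicles, nails and ridged or palmoplantar skin. They appear throughout the interfollicular epidermis after wounding and in psoriasis, where *Krt16* and *Krt17* are used as markers of the hyperproliferative state.

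On the GRCm38 (mm10) assembly, *Krt6b* (ENSMUSG00000023041) lies at chr15:101676023-101680293 and *Krt6a* (ENSMUSG00000058354) at chr15:101689928-101694305, with 9.634 kb between them. *Krt16* (ENSMUSG00000053797) lies at chr11:100246091-100248902 and *Krt17* (ENSMUSG00000035557) at chr11:100256215-100261029, separated by 7.312 kb. *Krt14* (ENSMUSG00000045545), at chr11:100203162-100207510, is 38.58 kb from *Krt16* in the same cluster of type I genes. The assay hybridises probe pairs to each transcript. Members of these clusters are close paralogs, and signal that belongs to a neighbour in sequence, above all between *Krt6a* and *Krt6b*, cannot be told apart from the gene's own in these counts. For the same reason a level of 1 keratin is not a molar amount that can be set against another, and ratios to *Krt14* are compared between spots and sections for the same gene.

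The control section held 1282 spots over tissue and 5315351 unique molecular identifiers (UMIs, the tags of single captured molecules), and the Cre section 981 spots and 2845826 UMIs. The median was 3542.5 and 2319 UMIs per spot. A spot covers several cells. The libraries share 357 spot barcodes, which mark places on the array and not cells. Epidermis-like spots were taken from 8 basal and 10 suprabasal marker genes, among which neither *Krt14* nor a member was counted. A spot needed at least 5 marker UMIs and a mean enrichment of both lists of at least 2, measured against the mean of the sections' own shares and no lower than that of the dermis, fat or muscle markers. This gave 268 control spots with 1583351 UMIs, but 29 Cre spots with 138677 UMIs. Just below the limit, at an enrichment of 1.8 to 2, lay 47 and 28 spots, and 53 and 11 lay just above it, at 2 to 2.2. Because of this imbalance the main values are also given for the surface spots, the 2 tissue spots nearest the skin surface in each array column. They were chosen by position, apart from the side of the surface, which was taken from the markers. There were 404 and 400 of them, with 2066322 and 1111014 UMIs. Of the epidermis-like spots, 230 of 268 and 29 of 29 were surface spots.

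The epidermis-like spots were chosen by the basal, suprabasal, dermis, fat and muscle markers, so the levels of these lists there are a description and do not check the label. The surface spots used the markers only for the side of the surface, but for that reason the epidermis markers do not check that label either. In the control surface spots 7 of 8 basal and 10 of 10 suprabasal markers were above the rest of the section. In the Cre surface spots 8 of 8 and 10 of 10 were. The muscle list (7 genes) was at 904 and 5616 counts per 1000000 UMIs of the same spots (CPM), and at 29246 and 92193 CPM in the rest of the sections. The sections differed in what the spots held. Summed suprabasal markers were at 68577 CPM in the control and 38528 CPM in the Cre epidermis-like spots, with basal markers at 6861 and 8855 CPM. In the surface spots suprabasal markers were at 56999 and 20813 CPM, and dermal markers (9 genes) at 6947 and 13275 CPM. The targeted gene, *S1pr2*, had 28 and 3 UMIs in the epidermis-like spots, and its log2 ratio of 0.29 (−2.07 to 1.99) does not check the deletion at this depth.

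The type II members were the first comparison. *Krt6a* had 9067 UMIs in the control and 527 in the Cre epidermis-like spots, or 5726 CPM (5609 to 5846) and 3800 CPM (3483 to 4139). Per *Krt14* UMI this was 0.209 (0.204 to 0.213) and 0.122 (0.111 to 0.133) *Krt6a* UMIs. The log2 ratio of the Cre section over the control section, relative to *Krt14*, was −0.78 (−0.92 to −0.64), which is 1.71-fold lower. Fewer cells that make a keratin and less of its RNA per cell cannot be told apart in spots. Among surface spots *Krt6a* had 12018 and 2343 UMIs and stood at 0.219 and 0.126 per *Krt14* UMI, a log2 ratio of −0.80 (−0.86 to −0.73). Where spots were chosen by marker enrichment against their own section (77 and 205 spots), the log2 ratio of *Krt6a* was nearer to 0, at −0.28, and that of *Krt16* was −1.19.

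*Krt6b*, the more counted of the pair, had 22271 and 1321 UMIs in the epidermis-like spots, or 14066 and 9526 CPM. Relative to *Krt14* it stood at 0.512 (0.504 to 0.521) and 0.305 (0.287 to 0.324), a log2 ratio of −0.75 (−0.84 to −0.66). The surface spots held 28842 and 5291 *Krt6b* UMIs, or 0.524 and 0.284 per *Krt14* UMI, with a log2 ratio of −0.88 (−0.93 to −0.84). The proportion of *Krt6b* to *Krt6a* differed little in these sets of spots. There were 2.46 *Krt6b* UMIs for each *Krt6a* UMI in the control epidermis-like spots (2.40 to 2.52) and 2.51 in the Cre ones (2.26 to 2.78), a log2 difference of 0.029 (−0.12 to 0.18). The proportion in the surface spots was 2.40 and 2.26, a log2 difference of −0.088 (−0.16 to −0.011). With enrichment against the same section the genes moved apart, with log2 ratios relative to *Krt14* of −0.63 (−0.69 to −0.56) for *Krt6b* and −0.28 (−0.38 to −0.18) for *Krt6a*.

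*Krt16*, the type I partner of *Krt6*, differed most of the members. It had 24006 and 1162 UMIs in the epidermis-like spots, or 15162 CPM (14970 to 15354) and 8379 CPM (7904 to 8875). Relative to *Krt14* it stood at 0.552 (0.544 to 0.561) and 0.268 (0.251 to 0.286), a log2 ratio of −1.04 (−1.14 to −0.95), or 2.06-fold lower in the Cre section. In the surface spots it had 29632 and 4413 UMIs, 0.539 and 0.237 per *Krt14* UMI and a log2 ratio of −1.18 (−1.24 to −1.13). The difference was larger for *Krt16* than for *Krt6b*. The ratio of *Krt16* to *Krt6b* was 1.08 (1.06 to 1.10) and 0.880 (0.812 to 0.953), a log2 difference of −0.29 (−0.41 to −0.18), and −0.30 (−0.36 to −0.24) in the surface spots.

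*Krt17*, a type I keratin, behaved differently from the other members. It is also made in the outer root sheath, but the other members are found in hair follicles too. It had 5009 and 436 UMIs in the epidermis-like spots, or 3164 CPM (3077 to 3252) and 3144 CPM (2856 to 3453). Relative to *Krt14* it stood at 0.115 (0.112 to 0.119) and 0.101 (0.0910 to 0.111), a log2 ratio of −0.20 (−0.35 to −0.047). In the surface spots it had 6509 and 2596 UMIs, and 0.118 (0.115 to 0.121) and 0.139 (0.134 to 0.145) per *Krt14* UMI. There the log2 ratio was 0.24 (0.17 to 0.31). In CPM, however, *Krt17* was lower in the Cre surface spots, with a log2 ratio of −0.43, and *Krt14* had −0.67. The median of all genes there relative to *Krt14* was 0.72. With spots chosen by marker enrichment against their own section (77 and 205 spots), *Krt17* relative to *Krt14* had 0.92 (0.79 to 1.04). Both the size and the direction of *Krt17* relative to *Krt14* are therefore not settled by these sections. The ratio of its type I neighbour *Krt16* to *Krt17* was lower in the Cre section in both sets of spots. There were 4.79 *Krt16* UMIs per *Krt17* UMI in the control epidermis-like spots and 2.67 in the Cre ones, a log2 difference of −0.85 (−1.01 to −0.68), and 4.55 and 1.70 in the surface spots, a log2 difference of −1.42 (−1.50 to −1.34). Markers of the outer root sheath and companion layer (5 genes) were at 316 and 173 CPM in the epidermis-like and at 470 and 536 CPM in the surface spots. That list had 501 and 24 UMIs in the epidermis-like spots, and its genes *Lgr5* and *Lhx2* were at 0 in the Cre ones. Markers of hair shaft and inner root sheath (11 genes) were at 31.6 and 93.7 CPM, and at 30.5 and 131 CPM in the surface spots. These levels rest on 50 and 13 UMIs, and on 63 and 145 UMIs in the surface spots. *Krt27*, *Krt71*, *Krt31*, *Krt33a* and *Krt81* of the hair list were at 0 in the Cre epidermis-like spots. Chemosensory receptor genes, which skin should hardly express, were also higher in the Cre section. In all they were at 1748 and 6901 CPM, and at 2008 and 10173 CPM in the surface spots. In the Cre surface spots 10 of 11 hair genes were above the rest of the section (131 against 69.7 CPM). In the control ones 2 of 11 were (30.5 against 47.7 CPM). Of the outer root sheath genes, 5 of 5 were above the rest in the Cre and 2 of 5 in the control surface spots. Whether the Cre spots held more hair follicle was not tested. Without the epidermis-like spots that held a hair shaft or inner root sheath UMI, *Krt17* relative to *Krt14* had a log2 ratio of −0.25 (−0.44 to −0.062). The part of outer root sheath cells in the *Krt17* values was not tested.

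**Figure D1:**
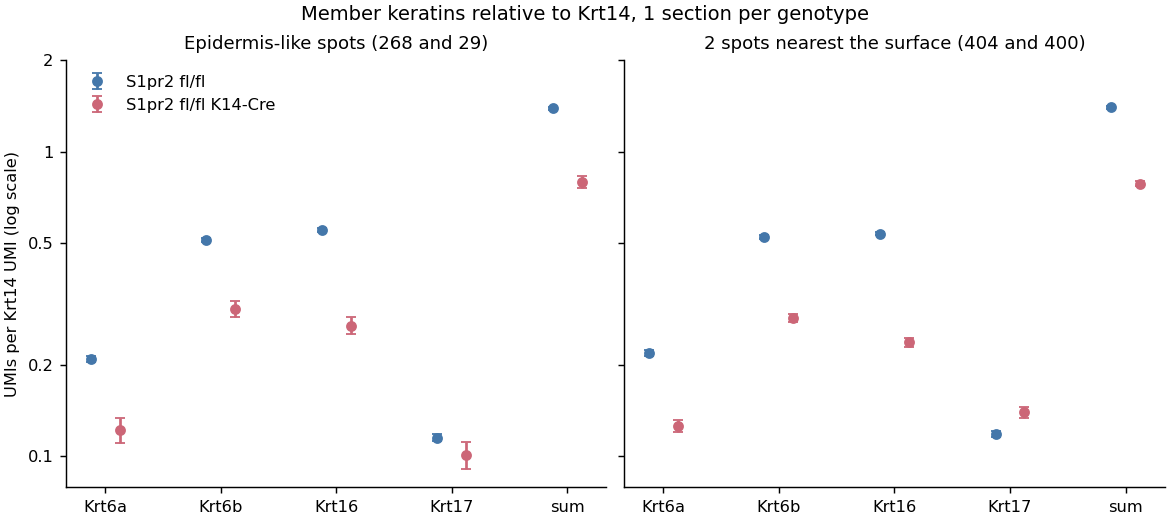
UMIs of each member and of their sum per *Krt14* UMI (log axis) in the epidermis-like spots (left) and the 2 spots nearest the surface in each array column (right), with points for the 2 sections and bars for exact 95% counting intervals. *Krt6a*, *Krt6b*, *Krt16* and the sum lie lower in the Cre section in both panels, the sum at 0.795 against 1.39 on the left, while *Krt17* lies lower on the left and higher on the right.

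Summed over the 4 genes, the members gave 1.39 UMIs per *Krt14* UMI (1.37 to 1.41) in the control and 0.795 (0.760 to 0.832) in the Cre epidermis-like spots. The log2 ratio was −0.80 (−0.87 to −0.74). The sum in the surface spots stood at 1.40 and 0.787, a log2 ratio of −0.83 (−0.87 to −0.80). The sum held a smaller share of *Krt16* and a larger share of *Krt17* in the Cre section. *Krt16* supplied 39.8% of the members' UMIs (39.4% to 40.2%, Clopper-Pearson) in the control and 33.7% (32.1% to 35.3%) in the Cre epidermis-like spots. *Krt17* supplied 8.30% (8.08% to 8.52%) and 12.7% (11.6% to 13.8%). *Krt6a* made up 15% and 15.3%, and *Krt6b* 36.9% and 38.3%. In the surface spots *Krt16* supplied 38.5% and 30.1%, and *Krt17* 8.45% and 17.7%. *Krt6a* made up 15.6% and 16.0% there, and *Krt6b* 37.5% and 36.1%, so the small difference of *Krt6b* changed direction.

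*Krt14* itself was 1.14-fold higher in the Cre epidermis-like spots, at 27451 and 31238 CPM (log2 ratio 0.19, 0.14 to 0.23). It was lower in the surface spots, at 26614 and 16756 CPM (−0.67, −0.69 to −0.64). The ratio to *Krt14* therefore hides a different course of the levels in the 2 sets of spots. Measured in CPM, the log2 ratios in the epidermis-like spots were −0.59 for *Krt6a*, −0.56 for *Krt6b*, −0.86 for *Krt16* and −0.0089 for *Krt17*. They were, for the surface spots, −1.46, −1.55, −1.85 and −0.43 in the same order. With *Krt5*, the type II partner of *Krt14*, as the denominator, the summed members had a log2 ratio of −1.02 (−1.13 to −0.91) in the epidermis-like spots. *Krt5* was, however, a marker by which these spots were chosen.

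How common such differences were among other genes was read from every gene with at least 100 UMIs over the compared spots of both sections. In the epidermis-like spots 24.5% of 3184 genes were at least 2-fold lower in the Cre section relative to *Krt14*, and so was 1 of the 4 members, *Krt16*, which does not set it apart. At least 2-fold higher were 6.56% of genes and 0 members. In the surface spots 2.84% of 5845 genes were at least 2-fold lower relative to *Krt14*, *Krt16* again among them, and 36.7% were at least 2-fold higher, with 0 members. There 116 genes had a lower ratio than *Krt16*, 208 a lower one than *Krt6b*, 240 a lower one than *Krt6a* and 1604 a lower one than *Krt17*. Without reference to *Krt14*, 10.3% of 5846 genes in the surface spots were at least 2-fold lower in CPM, and 3 of the 4 members were, all but *Krt17*, while 11.7% of genes and 0 members were higher. These shares and ranks are over all genes, epidermal or not. *Krt14* had −0.67 in CPM there, with suprabasal markers lower and dermal markers higher in the Cre section. Less epidermis in the Cre surface spots cannot be told apart from lower levels of the members. Of 3185 genes in the epidermis-like spots 19.2% were lower and 9.73% higher, and 0 of the 4 members were either. The median log2 ratio of CPM over all these genes was −0.12 in the epidermis-like and 0.054 in the surface spots. Relative to *Krt14* it was −0.30 and 0.72.

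Spot by spot the sections overlapped. Over epidermis-like spots with at least 10 *Krt14* UMIs, the ratio of summed members to *Krt14* ran from 0.489 through a median of 1.33 to 3.27 in 231 control spots, and from 0.300 through 0.728 to 1.52 in 25 Cre spots. The upper 10% of the Cre spots began at 0.957, while the lower 10% of the control spots ended at 0.845 and the lower 25% at 1.05. Among surface spots the medians were 1.33 (335 spots) and 0.705 (282 spots), with ranges of 0.420 to 3.27 and 0 to 2.33. There the upper 10% of the Cre spots began at 1.31, and the lower 10% of the control spots ended at 0.835.

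**Figure D2:**
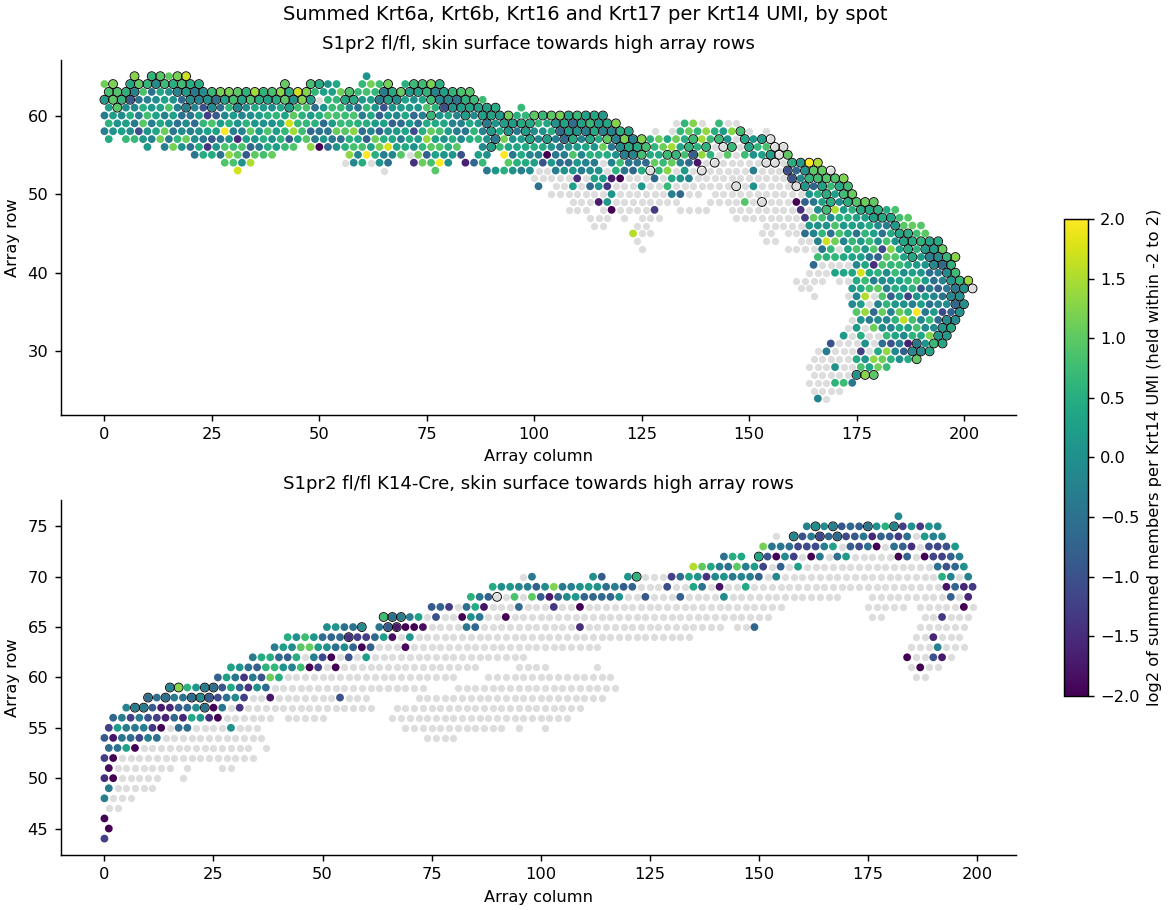
Summed UMIs of the 4 members per *Krt14* UMI on a log2 colour scale, held within −2 and 2, at the array position of each spot (array column across, array row upwards) in the control section (upper) and the Cre section (lower). Grey spots had under 10 *Krt14* UMIs and black rings mark epidermis-like spots. Values near or above 0 fill the surface of the upper section and the tissue beneath it, while the coloured spots of the lower section are a thin band along the surface, mostly below 0.

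Along the sections the difference held in each stretch. When the epidermis-like spots were ordered by array column and divided into 4 segments, the summed members per *Krt14* UMI were 1.52, 1.24, 1.45 and 1.32 in the control segments (67 spots each). They were 0.823, 0.723, 0.984 and 0.753 in the Cre segments (7 or 8 spots each). The lowest control segment lay above the highest Cre one, and the sum was lower in the Cre section in 16 of 16 pairs of segments, as were *Krt6a*, *Krt6b* and *Krt16*. *Krt17* was lower in 7 of 16. In 8 segments of surface spots the sum ran from 1.17 to 1.69 in the control section and from 0.669 to 0.93 in the Cre section, lower in 64 of 64 pairs. Segments of a section are not replicates of the genotype.

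The members differed in how much they varied along the section. Over the 8 surface segments *Krt16* per *Krt14* UMI ran from 0.450 to 0.598 in the control section, a 1.33-fold range, and from 0.226 to 0.253 in the Cre section, a 1.12-fold range. *Krt6b* varied 1.49-fold and 1.64-fold, and *Krt6a* 1.70-fold and 1.68-fold. *Krt17* varied most, 2.47-fold in the control section, from 0.0755 in segment 5 to 0.187 in segment 2, and 2.29-fold in the Cre section, from 0.0920 in segment 7 to 0.210 in segment 4. *Krt17* was lower in the Cre section in 18 of the 64 pairs of segments.

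**Figure D3:**
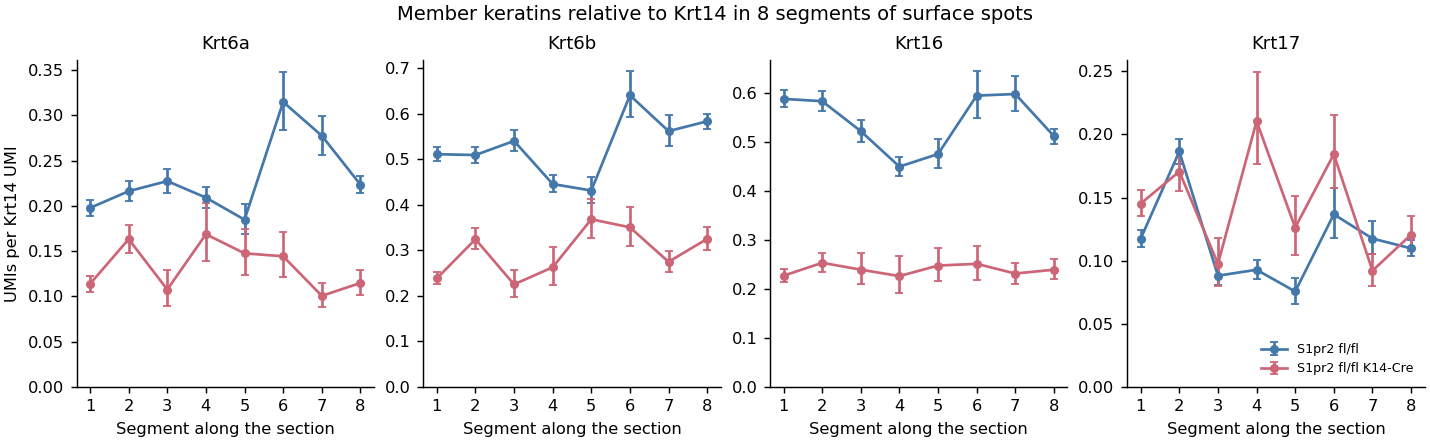
UMIs of each member per *Krt14* UMI in 8 segments of surface spots ordered along the array columns, 50 or 51 spots each, with exact 95% counting intervals. The Cre segments lie below the control segments for *Krt6a*, *Krt6b* and *Krt16*, with *Krt16* between 0.226 and 0.253, and cross them for *Krt17*.

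The members were also set against the differentiation of the spots. Spots were ordered by the suprabasal share of their epidermis marker UMIs, a measure that uses neither *Krt14* nor a member, and divided into 4 groups. From the first to the last group of surface spots *Krt14* itself went from 23078 to 31709 CPM in the control section. In the Cre section it went from 12366 to 19273 CPM, so the order cannot be read as layer position alone. In the control surface spots the summed members per *Krt14* UMI rose over these groups from 1.08 (suprabasal share 80.5%) through 1.26 and 1.60 to 1.78 (share 97.5%), a log2 difference of 0.72 (0.67 to 0.76). In the Cre surface spots they went from 0.670 (share 65.6%) through 0.700 and 0.864 to 0.897 (share 92.8%), a log2 difference of 0.42 (0.32 to 0.52). The interval of the most differentiated Cre group was 0.858 to 0.938, and that of the least differentiated control group 1.06 to 1.11. Spots of equal share can still differ in their layers and in how much dermis they cover. The part of differentiation in the difference between the sections was not tested. The shares differ between the sections at the same rank. Among surface spots with a share between 80% and 95%, 237 in the control section and 172 in the Cre section, the sum had a log2 ratio of −0.65 (−0.69 to −0.60) and *Krt16* one of −1.01 (−1.08 to −0.94). Over the epidermis-like spots the sum went from 1.11 to 1.71 and from 0.753 to 0.981.

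In the control surface spots the rise was larger for *Krt6b* and *Krt16* than for *Krt6a* and *Krt17*. From the least to the most differentiated group of surface spots, *Krt6b* per *Krt14* UMI went from 0.375 to 0.730 in the control section (log2 difference 0.96, 0.90 to 1.02) and from 0.210 to 0.335 in the Cre section (0.68, 0.53 to 0.82). *Krt16* went from 0.404 to 0.698 (0.79, 0.73 to 0.85) and from 0.204 to 0.277 (0.45, 0.29 to 0.60). *Krt6a* had a log2 difference of 0.33 (0.25 to 0.42) and 0.23 (0.023 to 0.43), the latter overlapping the interval of *Krt16* in the Cre section. *Krt17* had −0.085 (−0.21 to 0.036) and 0.094 (−0.087 to 0.27), intervals that hold 0, so no rise with differentiation was detectable for *Krt17* in the surface spots. The 29 Cre epidermis-like spots, in groups of 7 or 8, did not show this order. There *Krt17* had 0.61 (0.15 to 1.09), *Krt6b* 0.37 (0.062 to 0.68), *Krt6a* 0.36 (−0.075 to 0.79) and *Krt16* 0.31 (3.68e-05 to 0.62), with intervals that overlap.

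**Figure D4:**
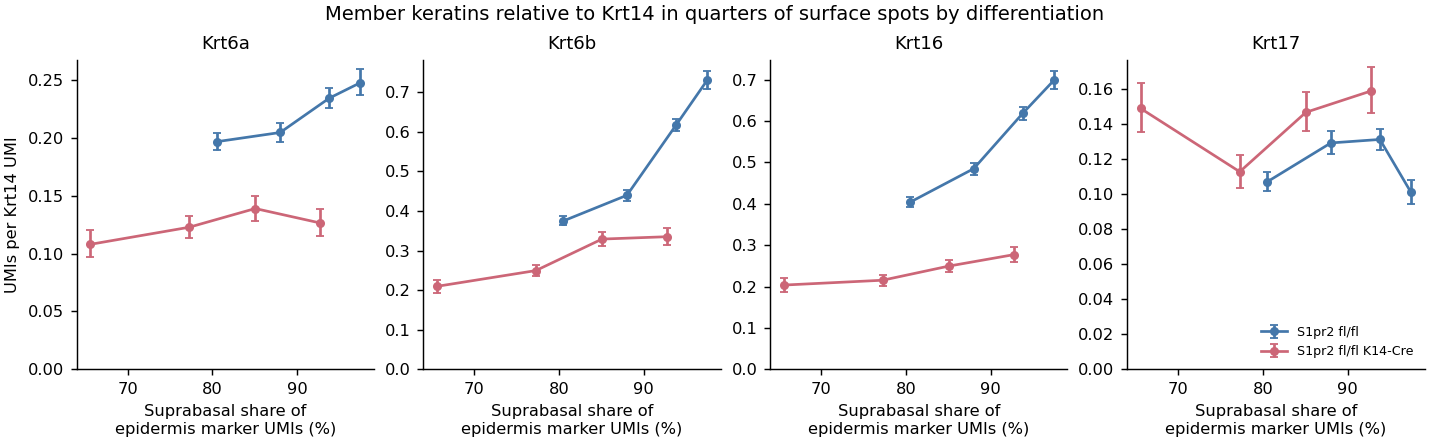
UMIs of each member per *Krt14* UMI (vertical axis) in 4 groups of surface spots against the suprabasal share of epidermis marker UMIs in percent (horizontal axis), with exact 95% counting intervals. *Krt6b* and *Krt16* climb to 0.730 and 0.698 in the control section and to 0.335 and 0.277 in the Cre section, while *Krt17* shows no common slope.

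Over the first 4 spots from the surface inwards the levels fell in both sections, and more steeply in the Cre section. The summed members were at 50711 CPM in the outermost control spot of each column, and at 26699, 13788 and 8260 CPM in the next spots inwards. In the Cre section they were at 20911, 6210, 1489 and 1424 CPM. *Krt14* went from 32146 to 7999 CPM and from 25214 to 892 CPM over the same 4 positions. At spots 5 to 7 the sum was at 7521, 8293 and 8899 CPM in the control section and at 1353, 1172 and 1179 CPM in the Cre section. In muscle-like spots, where keratinocytes should be lacking, the sum was at 5893 and 1365 CPM. The gentler fall in the control section is therefore not read as keratin expression deeper in the skin. In the outermost spot the sum per *Krt14* UMI was 1.58 (1.55 to 1.60) in the control section and 0.829 (0.809 to 0.851) in the Cre section, and in the next spot 1.20 and 0.680. *Krt6b* lost most with depth, from 0.633 to 0.402 and from 0.333 to 0.164 between these positions. *Krt17* went the other way, from 0.103 to 0.136 and from 0.115 to 0.199. Columns do not run straight into the skin where a section bends, above all at the high columns of the control section, so the counted position is only near to depth.

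**Figure D5:**
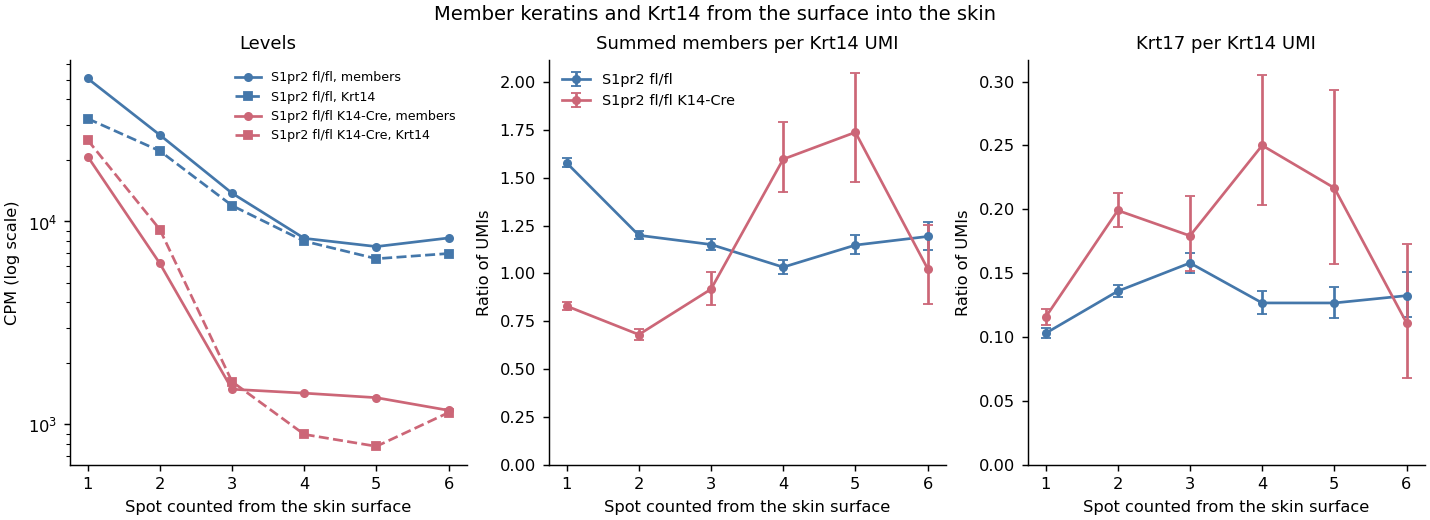
CPM of the summed members and of *Krt14* (left, log axis), summed members per *Krt14* UMI (middle) and *Krt17* per *Krt14* UMI (right) against the spot counted from the skin surface in each array column, with exact 95% counting intervals in the middle and right panels. The sum per *Krt14* UMI starts at 1.58 and 0.829 at the surface, and the high Cre ratio of 1.60 at the fourth spot stands on a *Krt14* level of 892 CPM.

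Keratin signal was also found where keratinocytes should be lacking. In muscle-like spots, which had the muscle markers as their leading list, *Krt14* was at 5051 CPM in the control section (171 spots, median depth 2305 UMIs) and at 719 CPM in the Cre section (269 spots, median depth 2428 UMIs). The summed members were 6.47-fold (6.25 to 6.70) and 18.2-fold (17.0 to 19.5) higher in CPM in the epidermis-like spots than in these muscle-like spots. At least 1 *Krt16* UMI was present in 98.5% of control and 100% of Cre epidermis-like spots (median depths 4889.5 and 3190 UMIs), but also in 84.8% and 65.4% of muscle-like spots. For *Krt17* the shares were 86.6% and 93.1%, against 56.1% and 29%. Thinned to 1000 UMIs per spot, *Krt17* was found in 83.7% and 80% of epidermis-like and in 38.0% and 15.4% of muscle-like spots. Shares of spots with a UMI are therefore not read as expression below the epidermis. The makeup of this signal differed between the sections. In muscle-like spots the sum per *Krt14* UMI was 1.17 (1.11 to 1.23) in the control section, below its epidermis-like value, and 1.90 (1.72 to 2.10) in the Cre section, above its epidermis-like value by a log2 difference of 1.26 (1.10 to 1.42). The part of this signal in the epidermal ratios was not tested. Chemosensory receptor genes (1226 genes), which skin should hardly express, were at 1748 and 6901 CPM in all in the epidermis-like spots. This was a mean of 2.26 and 0.781 UMIs per gene. Taking that mean off each gene left the sum at a log2 ratio of −0.80. So small an amount could not move sums of 60353 and 3446 member UMIs, so this outcome was fixed in advance. Receptor genes were not read in the muscle-like spots, and the source of the keratin signal there was not tested.

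Within the sections *Krt6a*, *Krt6b* and *Krt16* varied together. *Krt17* did so less, except over the Cre epidermis-like spots, where the values overlapped. Over the epidermis-like control spots with at least 1000 UMIs (233 spots), Pearson's r of log2(CPM + 100) was 0.85 between *Krt6b* and *Krt16*, 0.70 between *Krt6a* and *Krt6b* and 0.71 between *Krt6a* and *Krt16*. With *Krt17* it was 0.29 for *Krt6a*, 0.18 for *Krt6b* and 0.19 for *Krt16*. Over the Cre epidermis-like spots (25 spots) the values were 0.76, 0.52 and 0.65 among the former, and 0.44, 0.61 and 0.51 with *Krt17*. Over the Cre surface spots (348 spots) they were 0.60, 0.51 and 0.51 among the former, and 0.45, 0.44 and 0.36 with *Krt17*. These spots share a library and differ in depth and in how much epidermis they cover, so the values are descriptions. The genes whose level across epidermis-like spots was most like the sum were *Krt14* (r of 0.74 and 0.71), *S100a8* (0.75 and 0.67) and *Sprr1b* (0.79 and 0.66), followed by *S100a9* (0.72 and 0.64) and *Krtdap* (0.63 and 0.67). They were ranked by the lower of the r values of the sections, among 27 genes with enough UMIs in both. Among the 472 genes of the surface spots the same rule gave *Krt14*, *Krtdap*, *S100a8*, *Stfa3* and *Sprr1b*. *Krt5*, the basal partner of *Krt14*, did not follow it. With the sum, *Krt5* had r of −0.34 and −0.50 over the epidermis-like spots, and −0.30 and 0.55 over the surface spots.

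Other keratins differed in their ratios to *Krt14*. *Krt10* and *Krt1*, the pair of the spinous layer, were lower in the Cre section by more than any member. *Krt10* was at 13796 and 2083 CPM in the surface spots, a log2 ratio relative to *Krt14* of −2.06 (−2.13 to −1.99), and *Krt1* at 8344 and 1445 CPM, with −1.86 (−1.94 to −1.78). *Krt5* was at 0.170 and 0.210 per *Krt14* UMI, a log2 ratio of 0.31 (0.25 to 0.37). *Krt78* and *Krt80*, keratins of differentiated epithelium, had −1.85 (−2.33 to −1.39) and −1.68 (−1.97 to −1.40). *Krt75*, of the companion layer of the follicle, and *Krt15*, of basal and follicle cells, had 1.20 (0.92 to 1.49) and 0.74 (0.54 to 0.95), where the median of all genes was 0.72. In CPM the log2 ratio of *Krt15* was 0.076 (−0.13 to 0.28) and that of *Krt75* 0.54 (0.25 to 0.82). Both turned in the epidermis-like spots, where *Krt75* had −1.66 (−3.31 to −0.41) and *Krt15* −0.75 (−1.64 to 0.028) relative to *Krt14*, on 5 and 14 UMIs in the Cre section. The list held 8 keratins with enough UMIs, *Krt14* and *Krt5* included, and in CPM 4 of them were at least 2-fold lower in the surface spots and 0 higher, with a median log2 ratio of −1.50. Of all genes there, 10.3% were lower and 11.7% higher. Of the epidermis-like values 5 of 8 were lower and 0 higher, against 19.2% and 9.73% of all genes, but *Krt1*, *Krt5* and *Krt10* were markers there.

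Keratinocyte activation genes, which inflamed epidermis makes along with these keratins, were mostly lower in CPM too. *Krt14* was also lower in CPM in the surface spots (log2 ratio −0.67). Less epidermis in those spots cannot be told apart from lower levels of these genes. Of the 12 activation genes listed and measured in the surface spots, 9 were at least 2-fold lower in CPM and 0 higher, with a median log2 ratio of −1.41. Of all genes there, 10.3% were lower and 11.7% higher. *S100a9*, a calgranulin subunit also made by neutrophils, was at 12598 and 1515 CPM (log2 ratio −3.06, −3.13 to −2.98). *S100a8*, its partner, was at 10726 and 3965 CPM (−1.44, −1.48 to −1.39). *Sprr1b*, an envelope precursor, was at 4278 and 1922 CPM (−1.15, −1.22 to −1.09), and *Sprr2d* at 2413 and 265 CPM (−3.19, −3.36 to −3.02). The neutrophil list (5 genes, *S100a8* and *S100a9* among them) was at 23409 and 5576 CPM in the surface spots, on 48371 and 6195 UMIs. *S100a8* held 22164 and 4405 of these UMIs and *S100a9* 26032 and 1683, so the list value mostly repeats these genes and is no separate measure of neutrophils. The part of neutrophils in these values was not tested. In the epidermis-like spots 7 of 10 were lower and 0 higher, against 19.2% and 9.73% of all genes, with *S100a8* at −0.66 and *Sprr1b* at −0.21. The remaining 3 genes of the surface spots, named after their values were seen, were *Defb4* (−0.97), *S100a7a* (−0.95) and *Lcn2*, an iron-binding defence protein (0.0039, −0.18 to 0.19).

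Genes reported to induce or regulate these keratins gave no common direction. Of 15 listed genes, 8 had enough UMIs in the surface spots, and 0 of them differed at least 2-fold in CPM, with a median log2 ratio of 0.21. Of all genes there, 10.3% were lower and 11.7% higher. *Stat3*, a transcription factor downstream of IL-22, was at 244 and 145 CPM (log2 ratio −0.75, −1.02 to −0.50). *Nfe2l2*, the gene of the oxidative stress factor NRF2, was at 270 and 372 CPM (0.46, 0.27 to 0.65), and *Junb*, an AP-1 subunit, at 320 and 389 CPM (0.28, 0.10 to 0.46). Only 4 genes had enough UMIs in the epidermis-like spots, and *Stat3* was at least 2-fold lower (387 and 9 UMIs, log2 ratio −1.91, −3.05 to −0.97). *Tgfa*, an EGF receptor ligand, lay at the limit, with 208 and 9 UMIs and a log2 ratio of −1.02 (−2.17 to −0.065), and was not counted once 0.5 UMI was added to both sums. Of the cell cycle genes, 10 were measured in the surface spots and 0 differed 2-fold, with a median of 0.074. *Mki67*, a marker of cycling cells, was at 260 and 194 CPM there (−0.43, −0.66 to −0.20), and *Cdk1*, the mitotic kinase, at 138 and 251 CPM (0.86, 0.62 to 1.10). In the epidermis-like spots 2 of 6 were at least 2-fold higher, *Cdk1* (36 UMIs in the Cre section, log2 ratio 1.02, 0.47 to 1.54) and *Mcm3* (28 UMIs, 1.21, 0.57 to 1.81), and 0 were lower. Of all genes in the epidermis-like spots, 9.73% were higher and 19.2% lower.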

How the data were processed

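Formalin-fixed, paraffin-embedded skin sections of 10 μm were measured with Visium CytAssist, which captures probe pairs on barcoded spots. The deposited tables hold UMI counts, not normalized by the authors, for each gene at each spot covered by tissue, along with array positions. The file headers name Space Ranger 3.0.0 and the submitters' processing notes mm10. Counts are therefore after probe assignment and merging of reads by UMI. The labels gave 1 library to each genotype.

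UMIs were summed over spots in Python 3.11.15 with numpy, scipy and pandas and given as CPM or per *Krt14* UMI. Intervals (95%) of levels were exact Poisson, those of ratios were exact binomial given the total, those of ratios of ratios came from Fisher's conditional odds ratio, and shares of spots had Clopper-Pearson limits. They cover counting error only and were tested on simulated counts. Dermis-, fat- and muscle-like spots had the highest enrichment of that list, at least 2. Genes counted among all genes or in lists needed 100 UMIs over the compared spots of both sections (0.5 UMI was added to each sum for the call), and those correlated across spots 300 in the spots of each section. The symbols *Krt79*, *Krt18*, *Ccnb1*, *Krt33b* and *Krt86* of the lists matched no row. Genes named were the members, *Krt14*, the lists and the 5 genes most like the members. The members, lists and tests were chosen with earlier results of these data known. Alternatives changed the spots, the denominator, the depth and the background.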

Additional observations from a re-analysis of the deposited data

How the results depend on the processing

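The log2 ratios of *Krt6a*, *Krt6b*, *Krt16* and the sum were below 0 under 16 of 16 alternatives each, from −1.0 to −0.28, −0.97 to −0.50, −1.28 to −0.86 and −1.02 to −0.61. *Krt17* was below 0 under 9 and above 0 under 7, from −0.42 to 0.92, against −0.20 as reported. The alternatives include *Krt5* and all UMIs (CPM) as the denominator, which are not ratios to *Krt14*. Several kept nearly the same spots as the reported values, so the 16 are not independent checks. Connected groups kept 266 and 29 spots, the limit of 500 UMIs kept 248 and 29, and equal weighting used the same 268 and 29. Thinning kept 233 and 25 of them, and leaving out hair marker spots 231 and 21. The receptor subtraction, which could hardly change the sums, *Krt5* and CPM also used the same spots. *Krt17* was below 0 under each of these. Under the others it was above 0, apart from graph clusters (−0.014, −0.11 to 0.083). *Krt5* gave the lowest values of *Krt6a*, *Krt6b*, *Krt17* and the sum, and CPM gave the highest of *Krt16*. Values outside the reported interval were, with enrichment against the same section, −0.28 for *Krt6a*, −0.63 for *Krt6b*, −1.19 for *Krt16*, 0.92 for *Krt17* and −0.63 for the sum. With graph clusters they were −1.21 for *Krt16* and −0.014 for *Krt17*, and with the 2 surface spots −0.88 for *Krt6b*, −1.18 for *Krt16* and 0.24 for *Krt17*. Over all spots they were 0.18 for *Krt17* and −0.67 for the sum. With *Krt5* as the denominator they were −1.0, −0.97, −1.26, −0.42 and −1.02, and with CPM −0.59, −0.56, −0.86, −0.0089 and −0.62, for *Krt6a*, *Krt6b*, *Krt16*, *Krt17* and the sum. The following alternatives were chosen after seeing the data. The 200 spots with the highest basal marker share gave −0.64 for *Krt6a*, −0.52 for *Krt6b*, 0.15 for *Krt17* and −0.61 for the sum. The 1 spot nearest the surface gave −0.93 for *Krt6b*, −1.28 for *Krt16*, 0.17 for *Krt17* and −0.93 for the sum. Epidermis-like spots of like differentiation (155 and 13 spots) gave −0.50 for *Krt6b*, −0.94 for *Krt16*, 0.054 for *Krt17* and −0.62 for the sum, and such surface spots −0.58 for *Krt6b*, 0.25 for *Krt17* and −0.65 for the sum. The log2 difference of the sum between the most and least differentiated spots, 0.63 in the control section and 0.38 in the Cre section, kept its sign, with 0.43 by clusters and 0.72 by surface spots in the control section, and 0.74 in CPM in the Cre section. Over *Krt5* it was 2.60 and 1.82, which says nothing of stability, since *Krt5* is a basal marker by which these spots were ordered. Between the highest and lowest segment, 0.30 and 0.44, it was 0.18 by surface spots and 0.43 with 8 segments in the control section, and 0.40 and 0.97 over *Krt5*. The cause of these shifts was not tested. An enrichment of at least 4-fold left 6 and 0 spots and gave no value. No paired analysis was possible because each genotype had 1 section. The Cre values rest on 29 spots, with 436 *Krt17* UMIs, and the spread between mice is unknown.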
